A study of Mus musculus with 59 samples.

Results

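The peaks described here are the places where the repressor BCL6 was called in livers of fasted C57BL/6 mice but not in livers of fed ones, and where PPARα was also called. They were chosen by comparing the positions in 4 deposited peak lists. A BCL6 peak of the fasted list was taken if no BCL6 peak of the fed C57BL/6 list had its center within 200 bp, and if a PPARα peak of the fed or of the fasted list had. Of 9613 fasted BCL6 peaks, 1421 met the rule, which is 14.8% (95% Wilson interval 14.1% to 15.5%). They are called gained BCL6-PPARα peaks below.

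The series holds 59 samples, of which 21 stand behind the 7 peak lists used here. ChIP-seq, the sequencing of chromatin fragments bound by a factor, was run for BCL6, PPARα and PPARδ in whole livers of wild-type C57BL/6 mice, either fed ad libitum or fasted overnight. BCL6 was also mapped in fed Bcl6 fl/fl mice on the C57BL/6 strain, which carry floxed Bcl6 alleles without Cre and served as controls of the liver knockout. Each list pools 3 samples of a group, and the age of the mice is not in the labels. The fasted BCL6 list held 9613 peaks, the fed one 15642 and the fed Bcl6 fl/fl one 17454. PPARα had 21410 fed and 29085 fasted peaks, and PPARδ had 7328 fed and 2399 fasted peaks. The lists give positions on mm10 and no counts, so depth is unknown, no value carries a replicate error, and each place is either called or not called in a list. A missing call does not show that the factor was absent.

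BCL6 is a zinc-finger repressor best known from germinal-center B cells, which brings corepressors with histone deacetylases to its target genes. In liver it binds near genes of lipid handling and of the growth hormone response, where STAT5 recognizes a similar DNA element. PPARα is the nuclear receptor that fatty acids activate in fasting. It pairs with RXR on direct repeats of AGGTCA with a spacer of 1 base (DR1) and turns on fatty acid oxidation and ketogenesis, and PPARδ is a related receptor that binds the same kind of element.

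A set of 3 of the gained peaks shows what both elements look like together. They are the ones with the fewest mismatches in total to the BCL6 consensus TTCCTAGAA and to DR1 among the peaks that hold both. Capitals mark the match to each consensus. The sequences are the plus strand of mm10 over the deposited interval, and the positions are printed as deposited.

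Ccdc141, chr2:77171427-77171637: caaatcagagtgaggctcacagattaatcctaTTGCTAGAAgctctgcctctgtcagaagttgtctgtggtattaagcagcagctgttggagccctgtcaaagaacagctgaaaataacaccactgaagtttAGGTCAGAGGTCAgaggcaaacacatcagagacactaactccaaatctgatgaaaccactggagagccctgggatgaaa
Fbxo21, chr5:117986423-117986633: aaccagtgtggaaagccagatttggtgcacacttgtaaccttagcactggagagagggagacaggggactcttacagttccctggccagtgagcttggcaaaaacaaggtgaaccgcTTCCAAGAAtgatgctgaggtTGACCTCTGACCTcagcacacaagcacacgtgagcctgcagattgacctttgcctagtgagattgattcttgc
Xbp1, chr11:5505905-5506115: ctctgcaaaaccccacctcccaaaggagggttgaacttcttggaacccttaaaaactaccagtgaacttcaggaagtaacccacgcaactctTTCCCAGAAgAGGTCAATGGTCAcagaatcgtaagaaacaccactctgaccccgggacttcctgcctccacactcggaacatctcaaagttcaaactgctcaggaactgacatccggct

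The peak at Ccdc141 lay 897 bp upstream of its TSS, in the promoter. It held TTGCTAGAA, 1 mismatch from the BCL6 consensus, at bases 33 to 41 of the peak, and a DR1 with 0 mismatches at bases 133 to 145. The nearest fed BCL6 center was 707 bp away. The peak at Fbxo21, which encodes a subunit of ubiquitin ligases, was in intron 4 and held TTCCAAGAA and, on the minus strand, a DR1 with 0 mismatches. It was called by both PPARδ lists and by both PPARα lists. The third peak was nearest to Xbp1, a transcription factor of the unfolded protein response, 14631 bp upstream of its TSS and in exon 3 of the gene model Gm11963. Here 1 base separated the marked BCL6 match TTCCCAGAA from the DR1. The peak also holds TTCTTGGAA, unmarked, which on the minus strand is 1 mismatch from the BCL6 consensus. Such pairs were rare. Over whole peaks, 117 of the 1421 gained peaks (8.23%) held a BCL6 match, 196 (13.8%) held a DR1 match, and 15 (1.06%) held both. Among kept peaks the shares were 14.3%, 12.9% and 1.95%.

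Another 4 peaks lie at genes of fasting metabolism and of cytokine signaling and are shown because they are the gained peaks closest to a TSS among the genes of the lists described below. In these, capitals mark a match to any of the 12 consensus sequences searched.

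Cyp4a14, chr4:115496087-115496297: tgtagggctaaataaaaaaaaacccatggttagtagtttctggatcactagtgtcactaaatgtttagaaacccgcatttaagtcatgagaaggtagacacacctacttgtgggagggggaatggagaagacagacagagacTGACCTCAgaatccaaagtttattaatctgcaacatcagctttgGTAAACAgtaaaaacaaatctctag
Acot5, chr12:84068771-84068981: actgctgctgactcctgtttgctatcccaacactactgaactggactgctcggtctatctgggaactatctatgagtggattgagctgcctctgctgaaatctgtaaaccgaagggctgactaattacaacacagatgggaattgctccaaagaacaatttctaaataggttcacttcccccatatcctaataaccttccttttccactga
Acsl1, chr8:46470198-46470408: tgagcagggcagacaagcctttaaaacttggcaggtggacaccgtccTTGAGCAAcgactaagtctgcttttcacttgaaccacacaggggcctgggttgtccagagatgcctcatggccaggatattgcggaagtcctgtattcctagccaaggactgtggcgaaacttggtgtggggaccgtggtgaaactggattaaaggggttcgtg
Stat3, chr11:100938227-100938437: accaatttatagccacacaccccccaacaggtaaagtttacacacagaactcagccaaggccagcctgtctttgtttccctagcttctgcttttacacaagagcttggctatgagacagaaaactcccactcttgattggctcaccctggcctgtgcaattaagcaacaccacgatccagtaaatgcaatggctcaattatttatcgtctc

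None of the 4 held a BCL6 or DR1 match at the mismatches allowed. Cyp4a14, a PPARα target that encodes a fatty acid omega-hydroxylase, had its peak 51 bp upstream of the TSS, with matches to the FOX consensus TGTTTAC and to the CRE consensus TGACGTCA with 1 mismatch. The peak at Acot5, which encodes an acyl-CoA thioesterase of peroxisomes, lay 448 bp upstream of the TSS and matched none of the 12. Acsl1, which activates long-chain fatty acids, had its peak 734 bp upstream, with the marked match TTGAGCAA, 1 mismatch from the C/EBP consensus TTGCGCAA. The same peak also holds TTGCGGAA, unmarked and likewise with 1 mismatch. The Stat3 peak was in intron 1, 1208 bp downstream of the TSS, and matched none. PPARα was called in the fasted list only at Cyp4a14 and Acot5, and in both lists at Acsl1 and Stat3. Acot5 and Cyp4a14 belong to families of closely similar neighboring genes, and the authors kept only uniquely mapped reads, so peaks in such families are uncertain.

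The gained peaks were a minority of fasted BCL6 binding, and PPARα was called at most places of gain. Among all fasted BCL6 peaks, 20.4% had no fed BCL6 center within 200 bp and 85.9% had a PPARα center. The gained BCL6-PPARα peaks made up 72.6% of the 1957 fasted-only peaks, and the other 536 had no PPARα call. These shares follow from the rule and are descriptions. Another 3 classes of peak serve for comparison below. Kept peaks (6835) were fasted BCL6 peaks with a PPARα call that also had a fed BCL6 center. Lost peaks (5379) were fed BCL6 peaks with a PPARα call and no fasted BCL6 center. The third class is the 536 fasted-only peaks without PPARα. The test between classes was a two-sided Fisher's exact test on counts of peaks, with Benjamini-Hochberg adjustment over 10 tests. The 10 include the tests of PPARα called in the fasted list only, which are not read below. Peaks of a list are not replicates, so these p-values and all intervals cover counting error only.

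By the rule, no gained peak had a BCL6 center of the fed C57BL/6 list within 200 bp. The nearest center of that list lay at a median of 9142 bp, and for 1281 peaks (90.1%) it was over 1000 bp away. Within 10 kb, 732 (51.5%) had a fed C57BL/6 BCL6 peak. At the threshold itself few peaks were at stake. Only 3 gained peaks had a fed center between 200 and 210 bp, the closest at 202 bp, and 5 kept peaks had one between 190 and 200 bp, the farthest at 195 bp. The kept peaks lay at a median of 24.0 bp from the fed center.

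**Figure D1:**
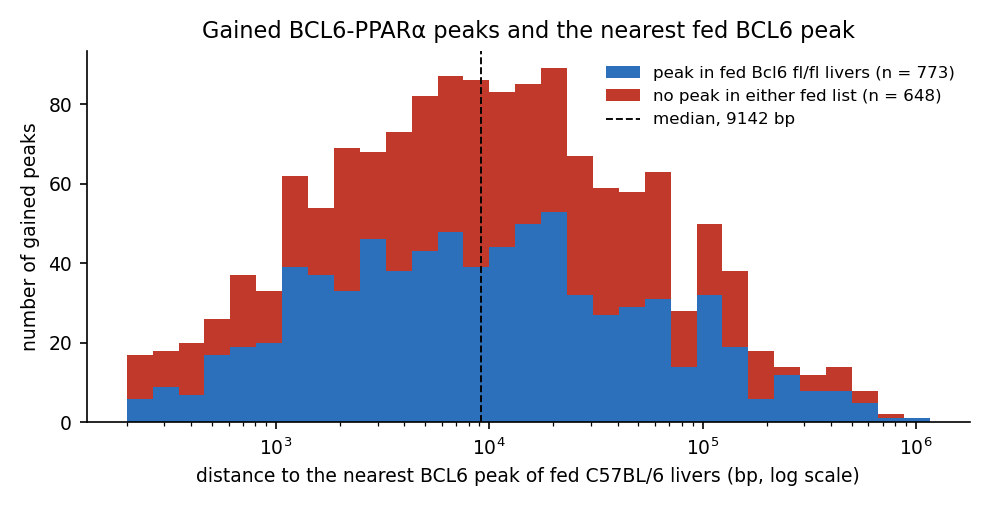
Number of gained BCL6-PPARα peaks (y axis) by the distance in bp to the nearest BCL6 peak of fed C57BL/6 livers (x axis, log scale), stacked by whether fed Bcl6 fl/fl livers had a peak at the place (blue, 773) or not (red, 648). The dashed line is the median of 9142 bp, and both groups spread over the whole range of distances.

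Over 50% of the gained peaks had a BCL6 call in another set of fed livers. In fed Bcl6 fl/fl livers, BCL6 was called at 773 of the 1421 places (54.4%), where over all fasted BCL6 peaks it was called at 80.4%. The remaining 648 (45.6%) had a fed call in neither list. Both fed lists came from fed mice, and they themselves shared only part of their peaks: 69.4% of the 15642 fed C57BL/6 peaks had a Bcl6 fl/fl center within 200 bp, and 62.2% the other way. For the kept peaks, which have a fed call by definition, the share was 88.9%, and for the lost peaks 57.7%. Among fasted-only peaks, a call in the Bcl6 fl/fl list was more frequent with PPARα than without. It was found at 184 of the 536 peaks without PPARα (34.3%, interval 30.4% to 38.4%), an odds ratio of 2.28 (1.86 to 2.81) for the gained BCL6-PPARα peaks, with an adjusted p of 4.68e-15 by Fisher's exact test.

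**Figure D2:**
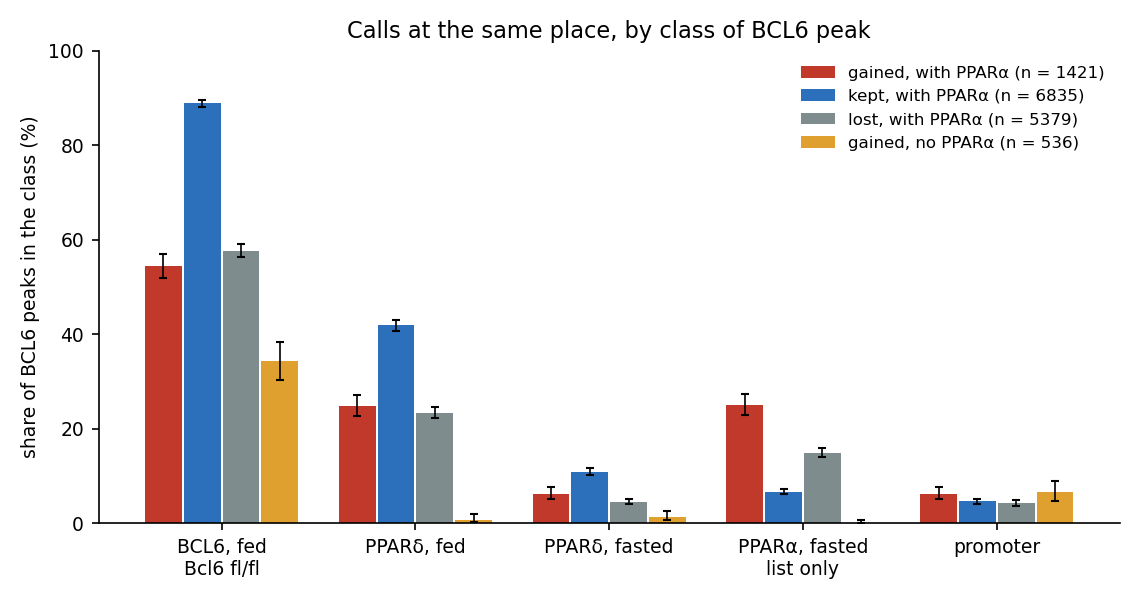
Share of BCL6 peaks in percent (y axis) that had a peak of the named list within 200 bp or their center in a promoter (x axis), for the 4 classes of BCL6 peak. Error bars are 95% Wilson intervals for counting error. PPARα called in the fasted list only stands at 25.1% of the gained BCL6-PPARα peaks (red) and is 0 by definition at peaks without PPARα. The rule used the PPARα lists, so these shares are descriptions.

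PPARα was called in both feeding states at most gained peaks. It was in both lists at 980 (69.0%), in the fasted list only at 357 (25.1%, interval 22.9% to 27.4%) and in the fed list only at 84 (5.91%). Over all fasted BCL6 peaks the shares were 72.0% for both, 8.47% for the fasted list only and 5.41% for the fed list only. The rule asked for PPARα in either list and not for the state. A call in the fasted list only was made at 457 kept peaks (6.69%, interval 6.12% to 7.30%) and at 801 lost peaks (14.9%, 14.0% to 15.9%). Since the rule used these PPARα lists, the shares are given as a description, and no test of them is read. The fasted PPARα list is longer than the fed one, for every class alike.

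The centers of both factors were close together. The distance from the BCL6 center to the nearest PPARα center had a median of 23.0 bp, with 1111 gained peaks (78.2%) under 50 bp and 28 over 150 bp. For kept peaks the median was 19.0 bp and 83.2% were under 50 bp, and for lost peaks 22.0 bp and 79.2%. These distances were not tested, since a PPARα center within 200 bp is what the rule asks for.

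PPARδ was called at fewer gained than kept peaks. The fed PPARδ list had a center at 352 gained peaks (24.8%), against 33.6% of all fasted BCL6 peaks and 2861 kept peaks (41.9%). The odds ratio against the kept peaks was 0.457 (0.402 to 0.521), with an adjusted p of 4.06e-34 by Fisher's exact test. The share was close to that of the lost peaks, at 1260 (23.4%). There the odds ratio was 1.08, its interval ran from 0.940 to 1.23, and the adjusted p of this exact test was 0.325. The fasted PPARδ list, which is shorter, had a center at 89 gained peaks (6.26%), against 8.78% of all fasted BCL6 peaks and 746 kept peaks (10.9%), an odds ratio of 0.545 (0.434 to 0.685) with an adjusted p of 6.25e-08 by Fisher's exact test. Lost peaks had it less often, at 241 (4.48%), an odds ratio of 1.42 (1.11 to 1.83) with an adjusted p of 0.00959 by the exact test. This difference did not pass among peaks with PPARα in both lists, where the odds ratio was 1.21 with an adjusted p of 0.358. With only the 648 gained peaks that had no fed call in either BCL6 list, the odds ratio against lost peaks was 0.963 for the fasted PPARδ list, which did not pass, and 0.604 for the fed one, with an adjusted p of 7.06e-06 by Fisher's exact test. The lost peaks were not filtered in this way, and 57.7% of them had a Bcl6 fl/fl call. Among gained peaks, fed PPARδ was more frequent with that call (32.5%) than without (15.6%). The comparison is therefore unequal, and no conclusion is drawn from it. By feeding state of PPARδ, 1052 gained peaks (74.0%) had neither call, 280 had the fed call only, 72 had both and 17 had the fasted call only.

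The calls went together among the gained peaks, as they did among kept and lost peaks. Where PPARα was in both lists, 60.2% had a BCL6 call in fed Bcl6 fl/fl livers and 31.7% a fed PPARδ call. Where PPARα was in the fasted list only, the shares were 39.2% and 8.96%. The 84 peaks with PPARα in the fed list only stood at 51.2% and 10.7%. Of the peaks with a fed Bcl6 fl/fl call, 32.5% had a fed PPARδ call, against 15.6% of those without. PPARα in the fasted list only was seen at 18.1% of the former and 33.5% of the latter. Depth and peak strength are not in the lists, so their part in this was not tested. No call of BCL6 or PPARα in any fed list was made at 217 gained peaks (15.3%). With PPARα in both lists, fed PPARδ was still called at fewer gained peaks (31.7%) than kept peaks (46.5%), and the share among lost peaks was 31.4%. With PPARα in the fasted list only, the shares of fed PPARδ were 8.96% (interval 6.42% to 12.4%) of gained, 10.7% (8.21% to 13.9%) of kept and 10.1% of lost peaks, and those of fasted PPARδ were 2.80%, 1.53% and 0.749%. The order of the Bcl6 fl/fl call was alike in the other classes, at 90.3% of kept and 64.8% of lost peaks with PPARα in both lists and at 72.4% and 39.2% with PPARα in the fasted list only.

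**Figure D3:**
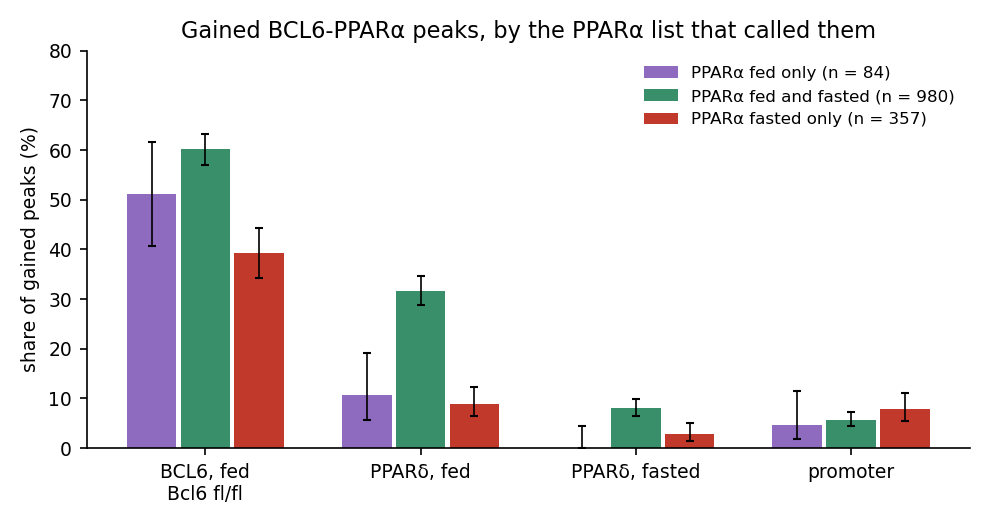
Share of the gained BCL6-PPARα peaks in percent (y axis) with a further call or a promoter position (x axis), split by the PPARα lists that called them. Error bars are 95% Wilson intervals. Peaks with PPARα in both lists (green) had the fed Bcl6 fl/fl BCL6 call at 60.2% and the fed PPARδ call at 31.7%, against 39.2% and 8.96% with PPARα in the fasted list only (red).

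Gained peaks, like the other classes, lay mostly in introns or between genes. Promoters were drawn around each TSS, with 1000 bp before it and 100 bp after it. By this, 88 gained peaks (6.19%, interval 5.05% to 7.57%) were in promoters, 47 (3.31%) in exons, 759 (53.4%) in introns and 527 (37.1%) between genes. Introns held 48.4% of kept peaks, 49.6% of lost peaks and 52.4% of the fasted-only peaks without PPARα. The promoter share was higher than among kept peaks (315, 4.61%), an odds ratio of 1.37 (1.07 to 1.74) with an adjusted p of 0.0183, and than among lost peaks (228, 4.24%), an odds ratio of 1.49 (1.16 to 1.92) with an adjusted p of 0.00472, both by Fisher's exact test. Both differences failed the test when centers had to lie within 100 bp, with adjusted p of 0.0943 and 0.0572, and among peaks with PPARα in both lists, with 0.308 and 0.775. The fasted-only peaks without PPARα had a promoter share of 6.53%, an odds ratio of 0.945 with an interval from 0.630 to 1.42 (adjusted p = 0.755, exact). The median distance to a protein-coding TSS was 20816 bp, and 33.7% of the gained peaks lay within 10 kb of one. The kept peaks had 24959 bp and 29.4%, and the lost peaks 27853 bp and 27.1%.

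Most gained peaks were nearest to genes that also had a BCL6 peak in the fed state. The gained peaks were nearest to 1210 protein-coding genes, of which 939 (77.6%) also had a fed C57BL/6 BCL6 peak and 271 had none. The share was 70.3% of the 508 genes of the fasted-only peaks without PPARα and 90.8% of the 4489 genes of all fasted BCL6 peaks, which include the kept ones. One gained peak each was found at 1042 genes, 2 at 134, 3 at 27 and 4 at 7. Only 14 gained peaks were within 1 kb of another.

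The 7 genes with 4 gained peaks were Gna12, Igfbp1, Pik3r1, Rbpms, Sox9, Tbl1xr1 and Ttc39b, and Adcy9, Atxn2 and Auh come first by symbol among those with 3. Gna12, which encodes a G protein alpha subunit, had 4 fasted BCL6 peaks in all, each of them gained and each in intron 1, against 1 peak in each fed list. The fed Bcl6 fl/fl peak was at the same place as the gained peak 35096 bp downstream of the TSS. PPARα was in both lists at 3 of the gained peaks and in the fasted list only at the one 1683 bp downstream of the TSS. Ttc39b also had 4 fasted peaks, all gained, with 4 other peaks in the fed C57BL/6 list. The fed Bcl6 fl/fl list had 11 peaks there, and 3 of the 4 gained peaks had one of them within 200 bp. Igfbp1, the insulin-like growth factor binding protein that liver releases in fasting, had 10 fasted peaks against 6 and 7 in the fed lists. Its gained peaks lay 10097 to 61853 bp upstream, inside introns of Adcy1 and Ccdc201, and only the farthest was called in fed Bcl6 fl/fl livers. Pik3r1, the regulatory subunit of PI3-kinase in insulin signaling, had 17 fasted peaks in all, fewer than the 25 and 24 of the fed lists. Tbl1xr1, a subunit of the NCoR/SMRT corepressor complex, likewise had 18 against 26 and 24. Long intergenic stretches put many peaks nearest to genes such as Sox9 and Tbl1xr1, and the nearest TSS does not show which gene a peak acts on.

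**Figure D4:**
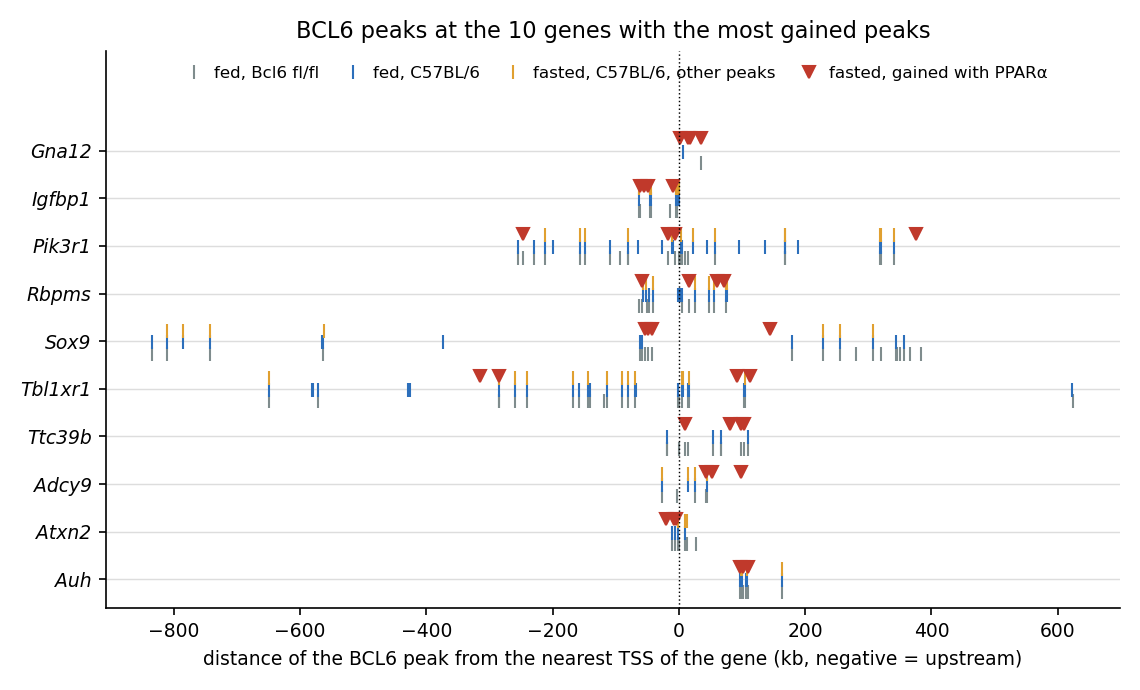
BCL6 peaks at the 10 genes with the most gained peaks, by distance from the nearest TSS of the gene in kb (x axis, negative is upstream), 1 row a gene. Red triangles are the gained BCL6-PPARα peaks, and ticks are the other fasted (orange), the fed C57BL/6 (blue) and the fed Bcl6 fl/fl peaks (gray). Gna12 and Ttc39b have 4 fasted peaks each, all of them gained, whereas gained peaks at Pik3r1 and Tbl1xr1 stand among many fed peaks.

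The gene lists differed in how many fasted BCL6 peaks were nearest to their genes, so gained peaks are given as shares of these. Many gained peaks nearest to genes of fasting control lay at long distance. The counts below use lists of genes chosen with earlier results of these data known, and no list was tested. They are read against the 14.8% of all fasted BCL6 peaks that were gained with PPARα. Near the 35 regulators of the fasting response, 27 of 131 fasted BCL6 peaks (20.6%) were gained, at 18 genes, and they made up 1.90% of the gained peaks against 1.36% of all fasted BCL6 peaks. Near 38 genes of fatty acid oxidation, 4 of 79 (5.06%) were gained. The share of the regulators was not particular to them, with 17.9% for ketone body genes and 17.8% for triglyceride storage and lipolysis.

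Of the 35 regulators, 18 had a gained peak and 17 had none, while only 30 had any fasted BCL6 peak. Over all genes, 1210 of the 4489 with a fasted BCL6 peak had a gained one. These counts are not matched for the number of peaks per gene, and the regulators held 131 fasted peaks. Gained peaks are given below as a number out of all fasted BCL6 peaks nearest to the gene. Irs2, the insulin receptor substrate of liver, had 2 of 19 gained, against 22 and 29 peaks in the fed lists. The gained ones lay 103041 and 116824 bp downstream of its TSS, both with PPARα in both lists. Trib1, a pseudokinase that controls liver lipid synthesis, had 3 of 8, at 99511 bp upstream and 124124 and 137538 bp downstream, all called in fed Bcl6 fl/fl livers. Foxo1 and Foxo3, transcription factors that insulin restrains, had 1 of 13 and 1 of 5. That of Foxo3, 2332 bp downstream of a TSS in intron 2, was also called by both PPARδ lists. The coactivators Ppargc1a and Ppargc1b had 1 of 4 and 2 of 4. Pdk4, the kinase that stops pyruvate oxidation in fasting, had 1 of 7, at 13652 bp upstream with PPARα and PPARδ in both states each. Tsc22d3 and Zbtb16, which glucocorticoids induce, had 2 of 3 and 2 of 5. Fkbp5 had 1 of 7, Sgk1 1 of 2 and the C/EBP factor gene Cebpd 1 of 1. Nr3c1, the glucocorticoid receptor gene, had 1 of 5, Cebpb 1 of 2 and Nnmt 1 of 4. The peak of Cebpd, 2502 bp downstream of its TSS in an intron of Spidr, had PPARα and PPARδ in the fasted lists only. BCL6 was called at this place in fed Bcl6 fl/fl livers, however. Lpin1 and Lpin2, phosphatidate phosphatases and coregulators, had 1 of 1 and 1 of 2, at 7620 and 2308 bp upstream of a TSS.

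The 4 gained peaks at fatty acid oxidation genes were at Acsl1, shown above, at Etfa, an electron transfer flavoprotein subunit, in intron 1 and 2318 bp downstream of the TSS, at Slc27a2, a fatty acid transporter, in intron 2, and at Hadh, a dehydrogenase of mitochondrial beta-oxidation, in intron 3. PPARα was in the fasted list only at Etfa and Slc27a2. BCL6 was called in fed Bcl6 fl/fl livers at the peaks of Acsl1, Etfa, Slc27a2 and Hadh. The Hadh peak had both PPARδ calls and a fed BCL6 center 930.0 bp away. At omega oxidation and acyl-CoA thioesterase genes 5 of 40 fasted peaks (12.5%) were gained. Besides Cyp4a14 and Acot5 these were at Cyp4a31, Acot12 and Aldh3a2, the last 1606 bp upstream of the TSS. At genes of ketone body metabolism 5 of 28 (17.9%) were gained. Among these, Bdh1 and Bdh2, dehydrogenases of hydroxybutyrate, had 1 gained peak each, and the monocarboxylate transporter gene Slc16a7 had 2. Gluconeogenesis genes had 3 of 37 (8.11%), at G6pc, glucose-6-phosphatase, 3094 bp upstream with PPARα in the fed list only, at Pcx, pyruvate carboxylase, 1640 bp upstream, and at Aqp9, the glycerol channel.

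The growth hormone axis, where BCL6 is known to oppose STAT5, had 6 of 90 fasted peaks gained (6.67%). Stat5a had its only fasted BCL6 peak gained, in intron 6 with PPARα in the fed list only. BCL6 was called at this place in fed Bcl6 fl/fl livers, which had 4 peaks at the gene. Stat5b had 1 gained peak of 2, in intron 1, against 5 fed peaks, and Stat3 has been shown above. Onecut1, the gene of HNF6, had 2 and the prolactin receptor gene Prlr had 1. In the remaining functional lists the counts were 5 of 41 for lipogenesis (12.2%), 8 of 45 for triglyceride storage and lipolysis (17.8%), 3 of 36 for the circadian clock (8.33%), 3 of 27 for autophagy (11.1%), 3 of 54 for amino acid catabolism and the urea cycle (5.56%), and 2 of 33 for BCL6 targets of lymphocytes (6.06%). A comparison list of olfactory receptor and keratin genes had 0 of 3. Of the marker genes of cell types, hepatocyte markers had 1 gained of 26 fasted peaks, endothelial markers 0 of 6 and stellate cell markers 0 of 2. Kupffer cell and lymphocyte markers had no fasted BCL6 peak. Cholangiocyte markers had 4 of 11, all of them at Sox9, which also has long intergenic flanks. Whole liver was used, so the cell type of a peak cannot be told from the lists.

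The sequence under the gained peaks held BCL6 matches less often than under kept peaks, though not in every setting tried. In the 50 bp at the peak center, TTCCTAGAA with up to 1 mismatch was found in 35 gained peaks (2.46%), against 3.96% of kept peaks, an odds ratio of 0.612 (0.428 to 0.874) with an adjusted p of 0.0242 by Fisher's exact test over 36 motif tests. This difference did not pass with centers within 400 bp (odds ratio 0.660, adjusted p = 0.0794), with no fed call in either BCL6 list (0.496, adjusted p = 0.0579) or with 1 mismatch fewer (0.411, adjusted p = 0.474, all exact). Lost peaks held the element at 2.31%, an odds ratio of 1.07 with an interval of 0.732 to 1.56 (adjusted p = 0.772, exact). All fasted BCL6 peaks had it at 5.23% and windows 1000 bp beside the gained peaks at 1.23%. The difference was larger against the fasted-only peaks without PPARα, where 10.3% held the element, an odds ratio of 0.221 (0.143 to 0.342) with an adjusted p of 4.31e-10 by the exact test. The STAT consensus TTCNNNGAA, which an exact BCL6 consensus also satisfies, stood at 2.53% against 8.40%, with an odds ratio of 0.284 and an adjusted p of 1.11e-06 by Fisher's exact test, which rose to 0.0579 with no fed call in either BCL6 list. Against kept peaks the STAT consensus gave an odds ratio of 0.705 and did not pass (adjusted p = 0.149, exact).

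Receptor elements were more frequent at gained peaks with PPARα than at those without, though not in every setting tried. DR1 with up to 2 mismatches was in 54 windows of gained peaks (3.80%), against 1.49% of the peaks without PPARα (odds ratio 2.61, adjusted p = 0.0345, Fisher's exact). The HNF4 consensus CAAAGTCCA stood at 7.04% against 3.54% (odds ratio 2.06, adjusted p = 0.0234, exact) and the ERR consensus TCAAGGTCA at 4.08% against 1.49% (odds ratio 2.81, adjusted p = 0.0234, exact). With centers within 400 bp, DR1 and ERR did not pass (adjusted p of 0.0985 and 0.0673, exact). With no fed call in either BCL6 list none of the 3 passed, with adjusted p of 0.501 for DR1, 0.0579 for HNF4 and 0.258 for ERR. With 1 mismatch fewer none of the 3 passed either, and the 2 motifs that did were BCL6 and STAT. There HNF4 had an adjusted p of 0.444, and the ERR odds ratio turned to 0.753 (adjusted p = 0.884, all exact). For DR1 no finite odds ratio above 0 was had at this setting. HNF4 and ERR are receptors whose elements overlap with DR1, and a PPARα call is what sets these classes apart. Since PPARα binds DR1, these tests add little to the rule, and no conclusion is drawn from them. Against kept peaks, the DR1 odds ratio was 1.22 with an interval of 0.897 to 1.65 (adjusted p = 0.373, exact), and against lost peaks 1.15 (0.846 to 1.57, adjusted p = 0.507, exact).

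HNF6 matches were fewer in gained than in kept and lost peaks, and glucocorticoid receptor (GR) matches were more frequent than in lost peaks. HNF6 is a liver factor that recognizes TATTGAT. This heptamer was in 2.11% of gained windows, against 3.80% of kept (odds ratio 0.545, 0.372 to 0.799, adjusted p = 0.0101, Fisher's exact) and 4.16% of lost peaks (odds ratio 0.496, 0.338 to 0.730, adjusted p = 0.00179, exact). The gained peaks were also richer in G and C, with a median of 47.5% over 200 bp against 44.5% in kept and 44.0% in lost peaks. The fasted-only peaks without PPARα had 46.0%. The part of base composition in the motif shares was not tested. The GR consensus, AGAACA and TGTTCT set 3 bases apart, was found with up to 2 mismatches in 16 gained windows (1.13%), against 0.428% of lost peaks (odds ratio 2.65, 1.40 to 5.03, adjusted p = 0.0234, exact). It was in 0.556% of kept peaks, where the odds ratio of 2.04 did not pass (adjusted p = 0.0993, exact), and in 0.598% of windows beside the gained peaks. The comparison with lost peaks passed here but not with centers within 100 bp (odds ratio 2.12, adjusted p = 0.105), with no fed call in either BCL6 list (2.18, adjusted p = 0.395) or with 1 mismatch fewer (1.89, adjusted p = 0.666, all exact).

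A pair of the 16 peaks with a GR match is shown as examples, chosen after their values were seen, as those with the fewest mismatches. Capitals mark the GR match.

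Tulp1, chr17:28420210-28420420: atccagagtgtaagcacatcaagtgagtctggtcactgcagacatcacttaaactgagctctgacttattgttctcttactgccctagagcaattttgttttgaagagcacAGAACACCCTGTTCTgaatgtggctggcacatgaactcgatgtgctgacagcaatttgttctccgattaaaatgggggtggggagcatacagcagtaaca
Mup5, chr4:61844827-61845037: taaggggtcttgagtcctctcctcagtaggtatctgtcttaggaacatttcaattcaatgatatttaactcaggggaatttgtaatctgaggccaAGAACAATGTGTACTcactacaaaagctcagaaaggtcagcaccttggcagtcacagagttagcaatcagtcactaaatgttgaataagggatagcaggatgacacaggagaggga

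The first has the GR consensus with 0 mismatches at bases 112 to 126. Its nearest TSS is that of Tulp1, but it lies in intron 5 of Fkbp5, a gene well known for induction by glucocorticoids. The second, with 1 mismatch, is 9752 bp upstream of Mup5 and between genes of the major urinary protein cluster, whose near-identical copies make its position uncertain. At both, PPARα was in the fasted list only and BCL6 was called in fed Bcl6 fl/fl livers. Among the other 14 were peaks 42 bp upstream of Sult1a1, a phenol sulfotransferase, 420 bp upstream of As3mt, an arsenic methyltransferase, and 103041 bp downstream of Irs2, described above.

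**Figure D5:**
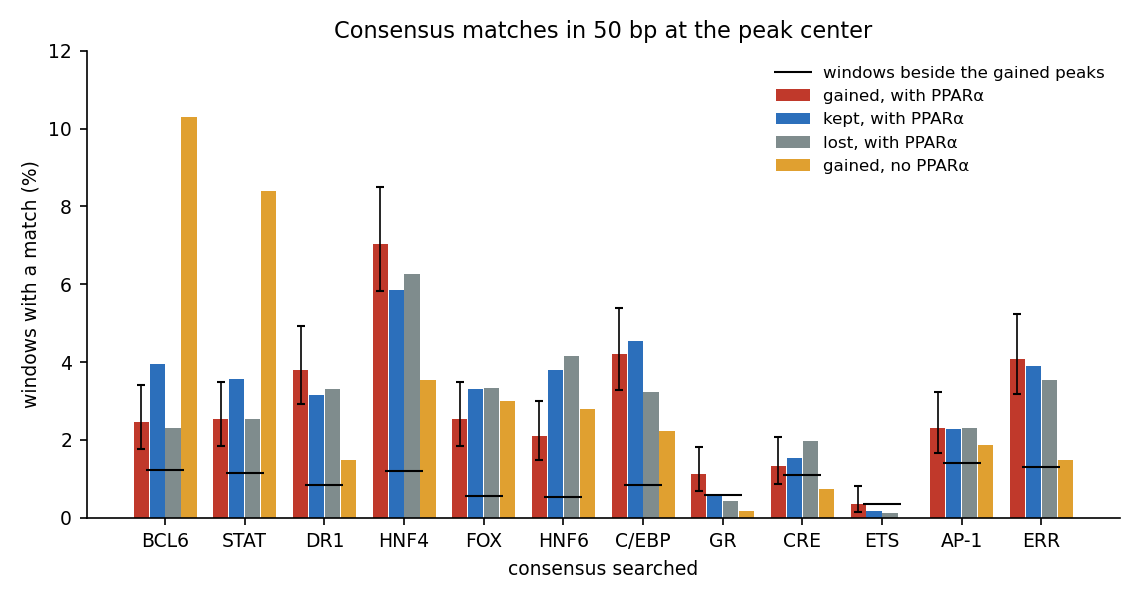
Share of 50 bp windows at the peak center with a match to each of 12 consensus sequences (x axis), in percent (y axis), for the 4 classes of BCL6 peak. Error bars on the gained BCL6-PPARα peaks are 95% Wilson intervals, and black lines are the windows 1000 bp beside them. BCL6 and STAT matches were most frequent at fasted-only peaks without PPARα, at 10.3% and 8.40%.

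The FOX, C/EBP, CRE, ETS and AP-1 consensus sequences passed in none of the 3 comparisons. FOX stood at 2.53% of gained, 3.32% of kept and 3.33% of lost peaks, C/EBP at 4.22%, 4.55% and 3.23%, CRE at 1.34%, 1.54% and 1.97%, and AP-1 (TGANTCA) at 2.32%, 2.27% and 2.32%. ETS (CCGGAAG) was at 0.352%, 0.176% and 0.130%. A missing match says only that these letters are not in the window.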

How the data were processed

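Mouse liver ChIP-seq lists of BCL6, PPARα and PPARδ peaks were used. Reads were aligned by the authors with Bowtie (mm10, unique matches only). HOMER then called peaks over input, with replicates pooled, and the authors used DESeq2 on the tags of single libraries to keep enriched peaks. The deposited lists hold chromosome, start and end of each peak, with no other value or score, and each list has 1 peak width. Coordinates are printed as deposited, and whether they count from 0 or 1 is not stated.

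Centers within 200 bp counted as the same place. The members and gene lists were chosen with earlier results of these data known. Shares carry 95% Wilson intervals. The test between classes was Fisher's exact test, two-sided, adjusted by the Benjamini-Hochberg method within 10 tests of calls and position and within 36 tests of motifs, with a threshold of 0.05 on the adjusted p. Odds ratio intervals are 95% intervals. No replicate error or depth can be had from the lists.

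Genes, TSSs and sequences came from RefSeq on GRCm38, the assembly of mm10, with 45756 transcripts and 21000 protein-coding genes. A peak was given to the nearest protein-coding TSS within 1 Mb. The 12 consensus sequences were searched on both strands in 50 bp. The mismatches allowed were 2 for DR1 and GR, 1 for BCL6, HNF4, C/EBP, CRE and ERR, and 0 for STAT, FOX, HNF6, ETS and AP-1. Windows 1000 bp to either side served as background. Repeats were not masked.

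Named genes were the 10 with the most gained peaks (ties by symbol) and every gene of 6 lists (fatty acid oxidation, omega oxidation with thioesterases, ketone bodies, gluconeogenesis, fasting regulators, growth hormone axis) with a gained peak. Sequences were printed for the 4 gained peaks of list genes nearest to a TSS and for the 3 with the fewest mismatches to both elements. The peaks with GR matches were added after their values were seen. A gene that the rule names is not reported here.

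On simulated data, 700 of 700 planted gained peaks and 2400 of 2400 planted motifs were found, and 26 of 500 Fisher tests on pairs with no difference were under 0.05. Alternatives covered the distance, the fed BCL6 calls, the PPARα list, chromosomes, promoter windows, motif settings and the reach to a TSS. RNA-seq and the knockout, corepressor and histone ChIP-seq samples were not used here. The tools were SciPy 1.17.1, NumPy 2.4.6 and Matplotlib 3.10.9 under Python 3.11.15.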

Additional observations from a re-analysis of the deposited data

How the results depend on the processing

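No paired analysis was possible because each list pools its replicates, and for the same reason no replicate could be left out. The number of gained peaks was between 1281 and 1473 under the distances, PPARα list and chromosomes tried, and 648 with no fed call in either BCL6 list. The odds ratios of the fed Bcl6 fl/fl call (2.27 to 2.89) and of PPARδ against kept peaks (0.256 to 0.536 fed, 0.369 to 0.619 fasted) kept their direction and passed in each alternative run. With centers within 100 bp, the promoter odds ratios were 1.26 against kept and 1.33 against lost peaks, neither passing, and 1 motif passed against lost peaks. With 400 bp, 1 motif passed against kept peaks and 3 against peaks without PPARα. With gained peaks held to no fed call in either BCL6 list, PPARδ against lost peaks turned to 0.604 (fed) and 0.963 (fasted, not passing), the promoter odds ratio against kept peaks was 1.43 without passing, and 1 motif passed in each of the 3 comparisons. Neither the lost nor the kept peaks are held to this alternative, so its comparisons with them are unequal. This holds also for its PPARδ odds ratios against kept peaks, 0.256 (fed) and 0.369 (fasted). A promoter reaching 5000 bp upstream gave 1.13 against kept peaks, not passing. With 1 mismatch fewer, 1, 1 and 2 motifs passed against kept, lost and peaks without PPARα, and the ERR odds ratio turned to 0.753. Among peaks with PPARα in both lists, an alternative chosen after seeing the data, the odds ratios that no longer passed were 1.21 for fasted PPARδ against lost peaks and 1.26 and 1.12 for promoters against kept and lost peaks. Where no value shows it, the cause was not tested. Of 62 values of single motifs, 13 kept their direction but no longer passed, besides the ERR value. Depth is not in the lists, so a missing call limits every share given.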
